A study of Homo sapiens and Mus musculus with 4 samples.

Results

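Aminoacyl-tRNA synthetases are the enzymes that join each amino acid to its tRNA, and 34 of their genes were examined for ATF4 peaks: 19 whose enzymes work in the cytosol and 15 whose enzymes work in mitochondria. The genes were taken by name, not by a measured value, from a table of 20037 human protein-coding genes (mitochondrial and unplaced genes left out), and all 34 were found there. The mitochondrial class holds the symbols that end in 2. GARS1 and KARS1, which serve both compartments, were kept with the cytosolic class. A peak was given to a gene if its centre was inside the gene's span or within 1 kb of either end. By that rule 5 of the 873 KG1a peaks belonged to synthetase genes.

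The study profiled ATF4 by chromatin immunoprecipitation and sequencing in KG1a cells, an established line from human acute myeloid leukaemia kept in serum-containing medium, and in marrow cells of C57BL/6 mice. Both sources gave a ChIP library, precipitated with an antibody to ATF4, and an input library, for which no antibody was used, which makes 4 libraries in 4 groups of 1. The labels give no treatment, genotype or passage for the cells and no sex, age or number for the mice. Each deposited list holds the chromosome, start and end of peaks of the ChIP library against its input, with no height or p-value, so read depth is unknown and no difference here has a replicate check. The mouse list holds 83088 peaks on GRCm38. Mouse gene positions were not used here, so the mouse orthologues were not analysed and every result below is on KG1a and GRCh38. Peak positions carry no expression, so the labelled cell types were not checked against marker genes.

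Animal cells charge tRNAs in the cytosol and in mitochondria with largely separate synthetases, all encoded in the nucleus. ATF4 is a bZIP transcription factor whose translation rises when amino acids run short or other stresses lead to phosphorylation of eIF2. It pairs with C/EBP proteins on a composite sequence, the C/EBP-ATF response element, and cytosolic synthetase genes are among the targets reported for it.

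The element was searched as the letters TGATGNAA, where N is any base, on both strands. Its strict form TGATGCAA is contained in it and reads TTGCATCA on the other strand. The search ran in RefSeq promoter windows of GRCh38.p14, which reach from 250 bases before a transcription start to 50 after it. A window was at hand for 29 of the 34 genes, and 8 of these held a match, 7 of them cytosolic. The sites of 7 genes are shown to let the element be compared between genes; they are aligned on it in capitals, each 30 bases long and read 5′ to 3′.

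AARS1, chr16:70289675-70289704, minus strand: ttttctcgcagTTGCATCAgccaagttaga
CARS1, chr11:3057407-3057436, minus strand: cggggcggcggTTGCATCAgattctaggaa
IARS1, chr9:92293692-92293721, minus strand: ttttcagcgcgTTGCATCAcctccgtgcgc
MARS1, chr12:57488053-57488082, plus strand: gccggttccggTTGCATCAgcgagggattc
TARS1, chr5:33440956-33440985, plus strand: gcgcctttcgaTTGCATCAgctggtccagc
GARS1, chr7:30594834-30594863, plus strand: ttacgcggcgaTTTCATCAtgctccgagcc
YARS2, chr12:32756076-32756105, plus strand: aaacttaatttTTCCATCAgcagtgtggat

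The strict form stood in the first 5 of these and in NARS1, all 6 cytosolic. GARS1 and the mitochondrial YARS2 held other forms of TGATGNAA. Only the AARS1, TARS1 and GARS1 sites lay inside a KG1a peak.

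A few cytosolic synthetase genes had a peak at an end in KG1a. Under the rule 4 of 19 cytosolic genes had a peak, or 21.1%, and they were AARS1, GARS1, TARS1 and YARS1. Of the 15 mitochondrial genes 1 did, or 6.67%, and it was RARS2, with a peak deep inside the gene. Over all protein-coding genes 489 of 20037 had a peak by the same rule, or 2.44%. Within 1 kb of a gene end the counts were 4 of 19 and 0 of 15, where the share over all genes was 0.509%. At that share fewer than 1 of 15 genes would have one, so the 0 says nothing about the mitochondrial class. With 1 list and 1 library per group these counts are descriptions, and the difference between the classes was not tested.

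**Figure D1:**
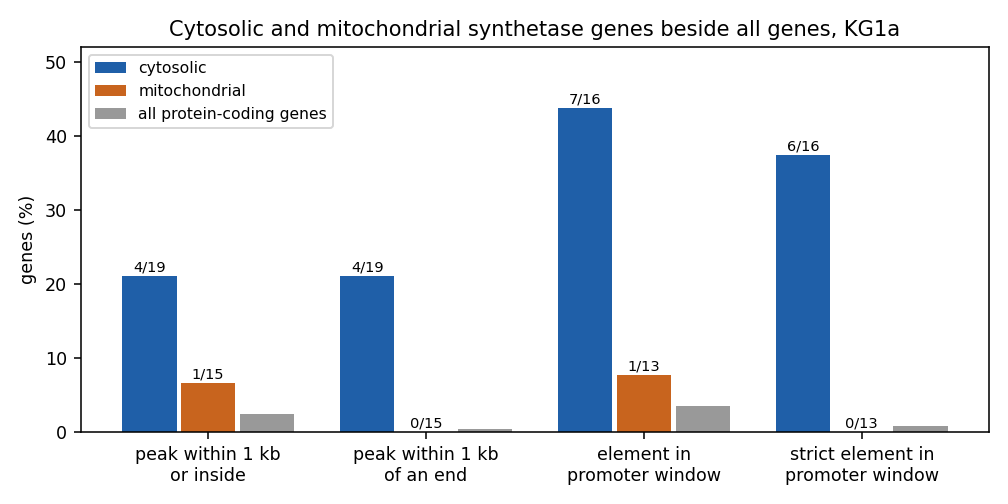
Bars give the percentage of genes in each class (cytosolic, mitochondrial, all protein-coding) with a KG1a peak under both position rules and with an element match in a promoter window; fractions above bars are genes with over genes examined. The cytosolic bar is the highest in each of the 4 sets of bars. No mitochondrial gene had a peak within 1 kb of an end or the strict element, which is near the shares over all genes.

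AARS1 encodes the cytosolic alanyl-tRNA synthetase, which also edits tRNA mischarged with serine. The gene lies on the minus strand at chr16:70252298-70289506, so its high-coordinate end is its start. Its peak, 539 bp wide, covered that start and all of the 250 bases before it, and its centre was 72 bp upstream. The TTGCATCA of AARS1 began 187 bases before the start and lay 111 bp from the peak's centre. The 250 bases upstream of the start, on the minus strand at chr16:70289507-70289756, are shown because the whole stretch lay inside the peak, with the element in capitals.

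AARS1 upstream: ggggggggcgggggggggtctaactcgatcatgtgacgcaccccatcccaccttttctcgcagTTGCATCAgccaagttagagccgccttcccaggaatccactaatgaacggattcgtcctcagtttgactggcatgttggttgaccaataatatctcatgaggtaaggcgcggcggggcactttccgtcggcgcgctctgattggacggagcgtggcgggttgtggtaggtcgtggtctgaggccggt

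The bases were 59.2% G or C and held 1 match. DDX19B, an RNA helicase gene, begins on the far side of the same stretch, 189 bp from the peak's centre, so this peak cannot be given to AARS1 alone. Nor can the element, at chr16:70289686-70289693. It lies nearer the DDX19B end at 70289767 than the AARS1 start at 70289506.

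TARS1 encodes the cytosolic threonyl-tRNA synthetase and lies on the plus strand at chr5:33440696-33468091. The table lists 2 starts for it, at 33440696 and 33440965. Its peak was 352 bp wide and left the first start outside. The peak covered the second start, and its centre lay 44 bp past it, against 313 bp past the first. The element began 2 bases past the second start, counted with the start as 0, and lay 39 bp from the peak's centre. TARS1-DT, a long non-coding RNA gene on the other side of the start, had its nearer end 375 bp from the centre.

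GARS1 encodes the glycyl-tRNA synthetase of both compartments and lies on the plus strand at chr7:30594735-30634033. It too has 2 listed starts, at 30594735 and 30594878, and its peak of 447 bp covered both. The centre lay 46 bp past the second start and 189 bp past the first. The match in GARS1, TTTCATCA, began 33 bases before the second start and lay 75 bp from the centre. No other gene of the table reached within 1 kb of this centre.

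YARS1 encodes the cytosolic tyrosyl-tRNA synthetase, at chr1:32775239-32817358. Its peak, 547 bp wide, was the widest of the 5, and was centred 15 bp beyond the high-coordinate end of the gene. The same centre lay inside S100PBP, 811 bp from the end of that gene, so the peak belongs to both by the rule.

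RARS2 encodes the mitochondrial arginyl-tRNA synthetase and lies on the minus strand at chr6:87513938-87589987. Its peak spanned chr6:87572971-87573315, 16.8 kb downstream of the start. RARS2 spans 76.0 kb. Of the 2913 protein-coding genes that span over 50 and up to 100 kb, 3.67% had a peak by the rule and 0.755% had one within 1 kb of an end. For the 10198 genes of up to 25 kb these shares were 0.755 and 0.412%, and for the 3356 genes over 100 kb they were 6.73 and 0.328%. The 4 cytosolic genes with a peak all fell in the class over 25 and up to 50 kb, which holds 7 cytosolic and 1 mitochondrial gene and where 2.21% of all genes had a peak by the rule and 0.756% had one within 1 kb of an end. The median span was 32.8 kb for cytosolic and 36.6 kb for mitochondrial genes. The part of gene length in these counts was not tested.

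**Figure D2:**
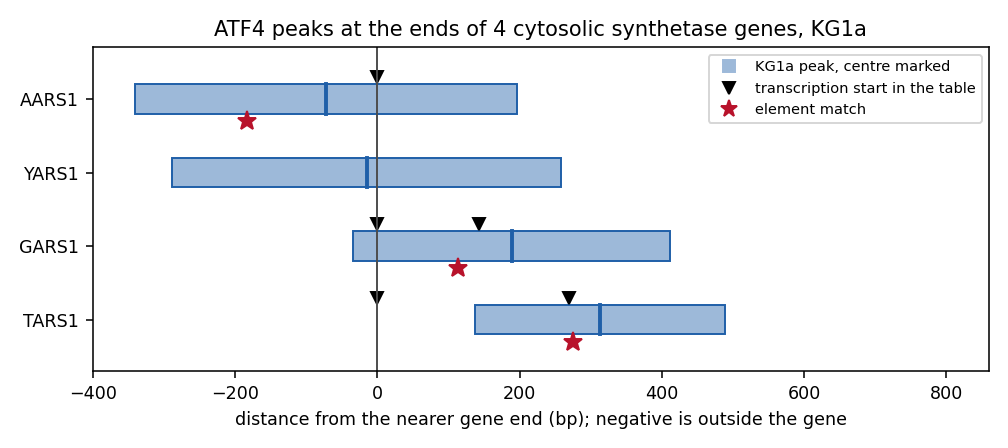
Each bar is the extent of the KG1a peak of a cytosolic synthetase gene, in bp from the nearer end of the gene, with values below 0 outside the gene; the line in the bar is the peak's centre, triangles are listed transcription starts and stars are element matches. The centres lie from 72 bp outside (AARS1) to 313 bp inside (TARS1), and no start or match is drawn for YARS1, which had no promoter window.

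In the deposited list the peaks of the cytosolic genes stood early. YARS1 was in place 8, AARS1 in place 13, GARS1 in place 17 and TARS1 in place 102 of 873. RARS2 followed in place 105. No label or header says what the order stands for. The widths of 547 (YARS1), 539 (AARS1) and 447 bp (GARS1) exceeded 96.6, 96.2 and 91.2% of all KG1a peaks. TARS1 at 352 bp and RARS2 at 345 bp lay near the median of 341 bp. The spacing of the other KG1a peaks was not computed, so the distances to the next peak have no background here. The next listed peak was 115 kb from that of AARS1, 369 kb from that of GARS1 and 990 kb from that of YARS1. For RARS2 and TARS1 it was 2.57 and 7.93 Mb away.

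**Figure D3:**
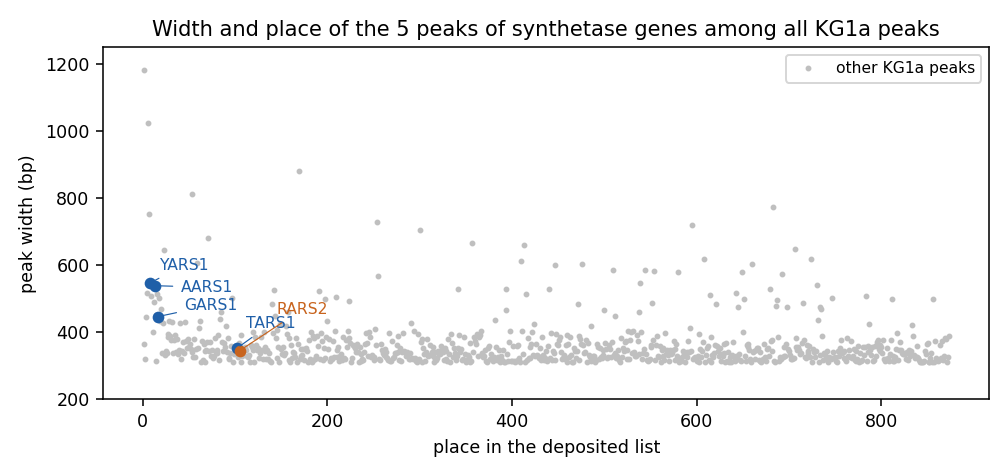
Each point is a KG1a peak, by its place in the deposited list (x axis) and its width in bp (y axis); the 5 peaks of synthetase genes are named. YARS1, AARS1 and GARS1 stand among the first 17 places with widths of 447 to 547 bp, while TARS1 and RARS2 lie close to the median width.

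For the other cytosolic genes the list gave no peak, which does not show that ATF4 was absent, since the depth is unknown. The nearest to a peak of the genes outside the rule was WARS1, which encodes the tryptophanyl enzyme, though it was far from the limit of 1 kb, with a peak centre 47.9 kb beyond the end opposite its start. That centre lay inside SLC25A29, a mitochondrial carrier gene. Next came IARS1 (isoleucine) at 126 kb, QARS1 (glutamine) at 532 kb and FARSB (phenylalanine, beta subunit) at 574 kb. KARS1 (lysine) and FARSA (phenylalanine, alpha subunit) lay 826 and 828 kb from a peak. CARS1 (cysteine) lay 1.11 Mb away, SARS1 (serine) 2.55 Mb, VARS1 (valine) 3.25 Mb and EPRS1, the fused glutamyl and prolyl enzyme, 3.34 Mb. The farthest were NARS1 (asparagine) at 5.99 Mb, MARS1 (methionine) at 7.10 Mb, RARS1 (arginine) at 8.02 Mb, HARS1 (histidine) at 9.30 Mb and LARS1 (leucine) at 14.7 Mb.

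Among mitochondrial genes other than RARS2 the distances ran from 124 kb to 9.32 Mb. MARS2 (methionine) lay at 124 kb, NARS2 (asparagine) at 145 kb, TARS2 (threonine) at 175 kb, YARS2 (tyrosine) at 277 kb and WARS2 (tryptophan) at 354 kb. AARS2 (alanine) and EARS2 (glutamate) lay at 573 and 864 kb. FARS2 (phenylalanine) followed at 1.63 Mb, although its span of 522 kb is the longest of the 34. CARS2 (cysteine) lay at 2.49 Mb, LARS2 (leucine) at 2.75 Mb, SARS2 (serine) at 2.82 Mb, IARS2 (isoleucine) at 3.24 Mb and VARS2 (valine) at 4.12 Mb. HARS2 (histidine) lay at 9.32 Mb, beside HARS1, since the ends of this pair are 84 bases apart. Of the 4 cytosolic genes with a peak, AARS1, TARS1 and YARS1 have a mitochondrial counterpart here, and AARS2, TARS2 and YARS2 had no peak. At the 2.44% of all protein-coding genes fewer than 1 gene would have one in a group of this size, so their lack of a peak says nothing about the pairs.

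Whole classes lay about as far from ATF4 peaks as genes in general. The median distance to the nearest peak was 828 kb for the 19 cytosolic genes, 864 kb for the 15 mitochondrial genes and 961 kb over the 19974 protein-coding genes on chromosomes with a peak.

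**Figure D4:**
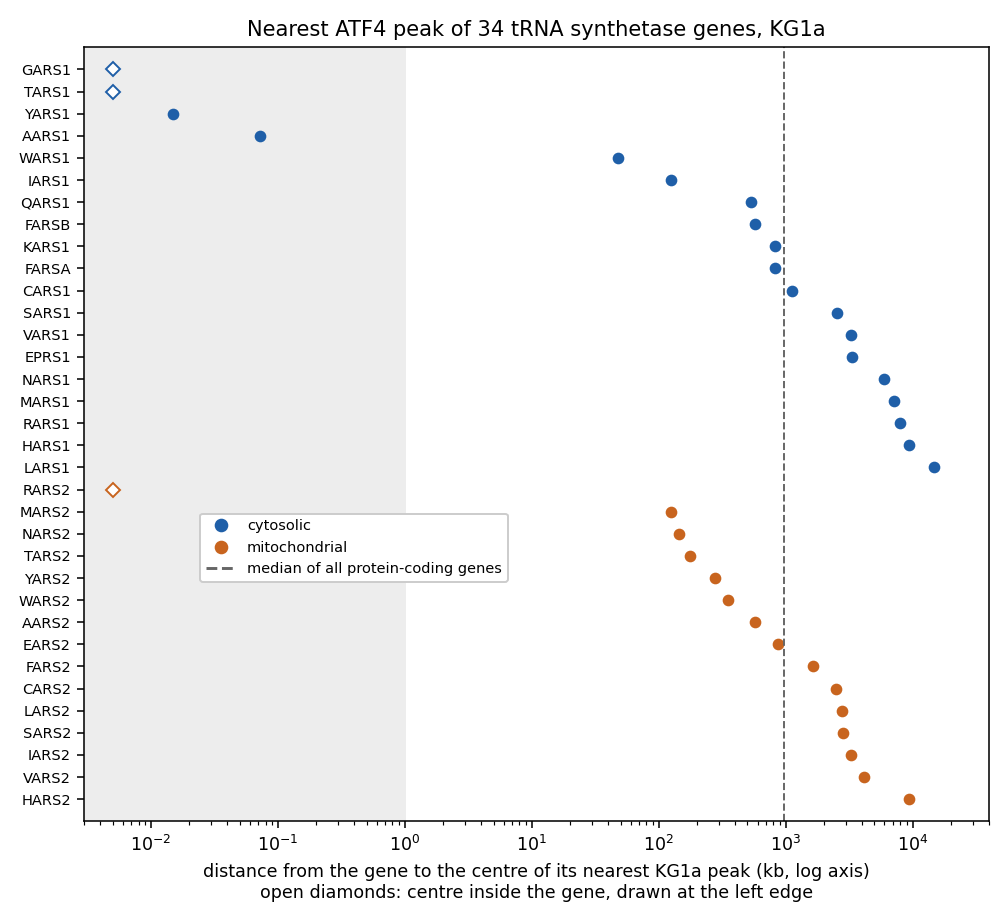
Each symbol is 1 synthetase gene, by the distance from the gene to the centre of its nearest KG1a peak in kb on a log axis; open diamonds are genes with the centre inside, and the shaded zone is within 1 kb. AARS1, YARS1, GARS1, TARS1 and RARS2 lie in the shaded zone, WARS1 follows at 47.9 kb, and the other genes scatter around the median of all genes (dashed line, 961 kb).

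The letters of the promoters, a measure that does not use the peaks, were counted in both classes, and the difference between them was not tested. Of cytosolic genes with a window 7 of 16 held TGATGNAA, or 43.8%, and of mitochondrial genes 1 of 13 did, or 7.69%. Over the 15843 protein-coding genes with a window the share was 3.6%. For the strict TGATGCAA the counts were 6 of 16 and 0 of 13, where the share over all genes was 0.903%. At these shares fewer than 1 of 13 genes would hold either form, so the mitochondrial counts are near the background. The palindrome TGACGTCA, the cyclic AMP response element that bZIP dimers bind, was found in 0 of the 29 genes with a window. Over all genes with a window 3.0% held it, which gives fewer than 1 of 29, so this 0 is near the background. These are matches of letters and not measured sites. A gene with 2 windows was counted once.

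The position of the strict element was alike in 5 of the 6 genes. In CARS1 it ran from 2 bases before to 5 after the start, and in MARS1 from 4 before to 3 after. In IARS1 it ended 6 bases before the start. In TARS1 it began 2 bases after the start and in NARS1 14 bases after. AARS1 alone had it far upstream, nearer the end of DDX19B than its own start. So 5 of 6 matches had their centre within 20 bases of the start, where over all protein-coding genes 16 of 151 matches did, or 10.6%. For TGATGNAA the counts were 5 of 8 in synthetase genes and 69 of 611, or 11.3%, over all protein-coding genes. The limit of 20 bases was not a planned setting, and the difference was not tested. TTGCATCA read along the gene in 5 of the 6, and in NARS1 on the opposite strand. Over all protein-coding genes TTGCATCA read along the gene in 51.7% of the 151 matches.

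**Figure D5:**
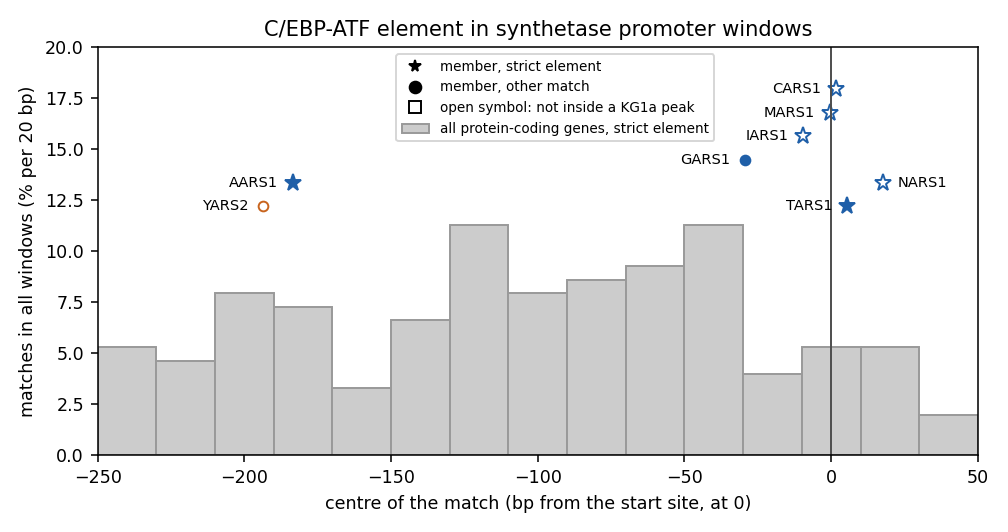
Symbols mark the centre of each element match in a synthetase promoter window, in bp from the start at 0, with filled symbols inside a KG1a peak; their height has no meaning. Grey bars give the percentage of strict matches of all protein-coding genes per 20 bp, and 5 of the 6 strict matches of synthetase genes stand within 20 bp of the start.

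A match and a peak did not always go together. Of the 7 cytosolic genes with TGATGNAA, AARS1, GARS1 and TARS1 had a peak at the start. CARS1, IARS1, MARS1 and NARS1 had the strict element at the start and no listed peak nearer than 126 kb. Over all protein-coding genes 571 held TGATGNAA and 1.23% of these had a peak over the window, as AARS1, GARS1 and TARS1 did. For the strict element the share was 3.5% of 143 genes, and over all genes with a window it was 0.328%. Of the 9 cytosolic genes with a window but no match, 0 had a peak within 1 kb of an end. Over all protein-coding genes 0.509% did, so 0 of 9 is near the background. Conversely 52 genes had a peak over a window. The strict element was in 5 of these, or 9.62%, and AARS1 and TARS1 were 2 of the 5. Among genes without such a peak the share was 0.874%. The windows covered 300 of the 539 bases of the AARS1 peak, 227 of 447 for GARS1, 181 of 352 for TARS1 and none for YARS1 and RARS2, so matches elsewhere in these peaks were not searched.

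Several cytosolic synthetases sit together in the multisynthetase complex. Of the 19 cytosolic genes 7 encode members of it (EPRS1, IARS1, KARS1, LARS1, MARS1, QARS1 and RARS1), and 0 of the 7 had a peak by the rule. At the 2.44% of all protein-coding genes fewer than 1 gene would have one in a group of this size, so the count of 0 says nothing about the complex. Of the 12 outside the complex 4 had one. The strict element was in 2 of the 6 complex genes with a window, IARS1 and MARS1, while LARS1 had no window. Outside the complex it was in 4 of the 10 genes with a window. Over all protein-coding genes with a window 0.903% held it. This grouping was made after the values were seen, and the difference was not tested.

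Further genes of tRNA charging and processing had no peak by the rule. In all, 0 of 31 did, against 2.44% of all protein-coding genes, which gives fewer than 1 gene for a list of this size. They comprised 3 scaffold proteins of the complex, 6 further genes of synthetases or related enzymes and 4 of the mitochondrial amidotransferase and formyltransferase. The rest were 3 genes of tRNA export, 10 of tRNA end processing or splicing and 5 of deacylases and peptidyl-tRNA hydrolases. XPOT, the exportin of tRNA, lay at 161 kb. AIMP1, AIMP2 and EEF1E1, the scaffold genes, lay at 635, 585 and 224 kb. The median over the 31 was 908 kb.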

How the data were processed

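Per the submitters' processing notes the authors used CASAVA 1.4, Bowtie2, MACS2 and deepTools with the builds GRCh38 and GRCm38. For settings and the peak threshold, no label or header gives a value. The deposited lists hold peak positions in bases, per the values in the 3 columns, with no score. Starts were read as counted from 0 and are printed counted from 1.

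Genes and promoter windows came from RefSeq tables of GRCh38.p14, which shares chromosome coordinates with GRCh38. All 34 genes matched by symbol in the first and 29 in the second. The centre of a peak is the middle of its interval. Genes on chromosomes without a peak have no distance. Exons were not used. Every one of the 34 genes is named, with other genes only where they share a peak or belong to the lists of tRNA charging genes. The genes, lists and rules were chosen with earlier results of these data known. 1 gene of those lists is not reported here. The planned mouse counts were not run. With 1 library per group no test was made. Computations used Python 3.11.15, numpy 2.4.6, pandas 2.3.3 and matplotlib 3.10.9, and the counting code was tested on simulated data.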

Additional observations from a re-analysis of the deposited data

Results flagged for a closer look

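The mouse bone marrow list, 83088 peaks of the ChIP library above its input, enters no comparison here, since mouse gene positions were not used. It is listed as signal outside the main measurement.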

How the results depend on the processing

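Of 24 alternative counts 18 stayed within 1.5 times of the reported one and 6 did not. The total of 5 genes with a peak became 3 in the widest 25% of the list, where TARS1 and RARS2 dropped out, and 3 when only transcription starts were used, where RARS2 did and YARS1, which has no window, was not counted. The 1 mitochondrial gene, RARS2, was lost in the widest 25%, at gene ends only and at transcription starts only, each giving 0. With the strict element the 1 mitochondrial promoter with a match, YARS2, became 0. The cytosolic count of 4 was 3 or 4 under all its alternatives, and 3 of 17 without GARS1 and KARS1. Distances of 500 bp and 5 kb, any overlapping base and the first 25% of the list left the total at 5. Over all protein-coding genes the share with a peak was 2.44% by the rule, 2.38% at 500 bp and 2.76% at 5 kb. It was 2.47% for any overlapping base, 0.664% in the widest 25% and 0.709% in the first 25%. At gene ends only it was 0.509%, and at transcription starts only 0.467% of the 15843 genes with a window. For the element the share was 3.6%, and 0.903% in its strict form. The alternatives for the mouse list were not run. No paired analysis was possible because each group has 1 library. Depth, which bears on what enters a list, is unknown.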
